A study of Mus musculus with 28 samples.

Results

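The 32 genes described here make up the machinery by which cells synthesise cholesterol and fatty acids under the control of the SREBP transcription factors. They comprise 18 enzymes of the sterol pathway, 6 regulators and 8 genes of fatty acid synthesis. They were picked by gene name from the 54427 symbols in the count tables. Each name occurred once, and all 32 genes passed the filter on low counts in every comparison.

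The libraries were made from primary microglia, the resident macrophages of the brain, taken from mice of 2 APOE genotypes. APOE3S/S is the genotype labelled Christchurch, after the APOE variant of that name, and APOE3 is the one labelled WT. There were 6 APOE3S/S libraries from cells given tau, 3 from cells given amyloid and 4 from untreated cells. APOE3 cells gave 6 tau, 3 amyloid and 6 untreated libraries. Untreated here means the treatment label Control, which does not say whether a vehicle was given. The dose, duration and form of tau and amyloid, and the age and number of mice, do not appear in the sources used here. The labels also do not say whether replicates came from separate cultures or animals, so the p-values reflect only how far these samples vary, which may be technical variation. Library titles follow 2 naming patterns, called here the second title series (11 libraries, tau and untreated cells) and the SAN title series (17 libraries, all treatments).

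SREBP proteins are made as membrane precursors in the endoplasmic reticulum. When sterols are scarce, the escort protein SCAP carries them to the Golgi, where proteases release the part that enters the nucleus and switches on lipid synthesis genes. When sterols are plentiful, INSIG proteins hold SCAP back and transcription of these genes falls. The product of Srebf2 acts mainly on sterol genes, and those of Srebf1 act mainly on fatty acid genes. Microglia take up cholesterol with myelin and cell debris, and APOE is a carrier of the lipids that glia export.

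Libraries held 14.5 to 27.2 M counts (M for 1e6) and 17302 to 20023 detected genes, and the 32 genes took 0.181 to 0.304% of the counts. Totals were 16.0 to 27.2 M in the second title series and 14.5 to 18.7 M in the SAN series. Levels are in CPM, a gene's counts per M of its library total. In 3′ sequencing each transcript gives about 1 read whatever its length, but how well a 3′ end is captured differs between genes, so levels are compared within a gene and not between genes. The label primary microglia was checked against marker genes. All 12 microglial markers were detected, summing to 8655 to 13880 CPM. Markers of neurons summed to 0.887 to 4.44 CPM, of fibroblasts to 0.691 to 64.4 CPM, of astrocytes to 33.6 to 118 CPM and of endothelial cells to 34.9 to 88.5 CPM. Oligodendrocyte markers summed to 185 to 293 CPM, mostly Cnp and Mbp, while Mog was at 0 in 11 of 28 libraries. The endothelial marker Cldn5 was at 0 in all 28. In bulk samples, fewer cells of a type and less RNA per cell cannot be told apart.

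RefSeq windows around the transcription start, from 250 bases before to 50 after (GRCm38.p6), were at hand for 25 of the 32 genes, in 33 windows. The sterol regulatory element TCACNCCAC, the sequence to which SREBP binds, was searched on both strands together with CCAAT, the box of the partner factor NF-Y, GGGCGG, the box of Sp1, and the E-box CACGTG. TCACNCCAC stood in 1 of the 33 windows, that of Hmgcs1, against 1.24% of 32851 windows of all genes. CCAAT stood in 21 of the 33 windows, against 37.4% of all windows, and GGGCGG in 25 of the 33, against 35.7%. CACGTG stood in windows of 5 genes, against 7.15% of all windows. Several genes have more than 1 window, so gene shares and window shares are not on the same footing. The motif letters are those searched and need not be all the forms the factors bind.

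The bases before the start are shown for 3 genes called lower with tau in APOE3 cells, Hmgcs1 and Sc5d against untreated cells and Fasn against amyloid, whose RefSeq start is not downstream of the GENCODE start. Hmgcs1 makes the HMG-CoA that feeds the mevalonate route, Sc5d is the desaturase of lathosterol, and Fasn builds palmitate. Capitals mark TCACNCCAC and CCAAT on either strand, the latter reading ATTGG on the strand shown. In Hmgcs1 the sterol element begins 137 bases before the start and stands between CCAAT matches. The 250 bases held 3 CCAAT matches in Hmgcs1, 3 in Fasn and 1 in Sc5d. A match is a run of letters and not a measured binding site.
Hmgcs1, chr13:119690101-119690350, plus strand: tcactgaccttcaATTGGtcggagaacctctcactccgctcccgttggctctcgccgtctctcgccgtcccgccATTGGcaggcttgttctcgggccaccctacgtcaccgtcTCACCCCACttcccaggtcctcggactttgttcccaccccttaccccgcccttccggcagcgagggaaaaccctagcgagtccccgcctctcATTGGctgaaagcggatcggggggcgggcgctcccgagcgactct
Fasn, chr11:120824548-120824797, minus strand: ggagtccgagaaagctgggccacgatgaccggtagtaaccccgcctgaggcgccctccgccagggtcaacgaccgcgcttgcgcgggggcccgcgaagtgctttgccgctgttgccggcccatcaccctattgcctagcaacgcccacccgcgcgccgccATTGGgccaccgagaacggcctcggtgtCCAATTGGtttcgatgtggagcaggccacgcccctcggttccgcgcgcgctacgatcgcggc
Sc5d, chr9:42264301-42264550, minus strand: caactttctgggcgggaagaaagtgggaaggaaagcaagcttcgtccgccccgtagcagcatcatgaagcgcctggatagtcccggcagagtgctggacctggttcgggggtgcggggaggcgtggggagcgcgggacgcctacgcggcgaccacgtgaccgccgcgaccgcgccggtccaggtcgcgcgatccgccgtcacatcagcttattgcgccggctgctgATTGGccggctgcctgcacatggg

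Part of the sterol pathway was lower with tau in APOE3 microglia. Fitted over 22 libraries with a term for title series, 6 of the 32 genes were lower with tau and 0 were higher. The share called in either direction was 18.8% of the 32 genes, against 14.8% of the 13905 genes tested. Of all genes 5.87% were called lower and 8.98% higher. The 6 were Hmgcs1, at the start of the mevalonate route, Cyp51 and Msmo1, which remove methyl groups from lanosterol, Sc5d and Dhcr7, which act at the last steps, and Insig1, the sterol-regulated inhibitor of SCAP. Their log2 fold changes lay between -0.44 and -0.33. Among the 18 sterol enzymes, 16 estimates were below 0 and the median was -0.27, against -0.02 for all genes tested. The 6 regulators had a median of -0.13 and 1 call. The 8 fatty acid genes had 0 calls, 2 at an unadjusted p under 0.05 in edgeR, 0 calls in DESeq2 and a median of -0.06. Of the 13905 genes tested 3814 had such a p.

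Hmgcs1 had 84.2, 92.5 and 91.4 CPM in tau-treated APOE3 libraries of the second title series and 50.1, 47.6 and 49.3 CPM in those of the SAN series. Untreated APOE3 libraries had 109, 104 and 113 CPM in the second series and 84.1, 72.3 and 79.4 CPM in the SAN series. Within each series every tau library was below every untreated one, while across series the groups overlapped. How many of all genes separate in this way was not counted, here or for the called genes that follow. Its log2 fold change was -0.44 ± 0.11 (SE) with an adjusted p of 0.0099 in edgeR. Hmgcs1 kept its call in all 12 fits that left out 1 library.

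Cyp51, lanosterol demethylase, had 103, 124 and 126 CPM with tau in the second series and 60.8, 43.1 and 55.6 CPM in the SAN series. Untreated cells had 131, 128 and 151 CPM in the second series and 96.6, 78.2 and 81.7 CPM in the SAN series. Again the tau values lay below the untreated ones within each series, and the fitted change was -0.41 ± 0.13 with an adjusted p of 0.034 in edgeR. Msmo1, the methylsterol oxidase of the next steps, had 114, 131 and 131 CPM with tau, against 127, 135 and 147 CPM untreated, in the second series. SAN-titled libraries had 77.3, 56.0 and 65.9 CPM with tau, against 123, 99.4 and 103 CPM untreated. The Msmo1 groups overlapped in the second series and not in the SAN series, and the fitted change was -0.37 ± 0.12 with an adjusted p of 0.046 in edgeR.

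Sc5d had 45.1, 45.6 and 50.4 CPM with tau, against 58.1, 54.2 and 56.7 CPM untreated, in the second series. Its SAN libraries had 29.7, 28.1 and 29.7 CPM with tau, against 42.0, 39.4 and 44.9 CPM untreated. The groups did not overlap in either series, and the fitted change was -0.35 ± 0.11 with an adjusted p of 0.025 in edgeR. Dhcr7, which makes cholesterol from its last precursor, had 53.5, 61.9 and 57.4 CPM with tau, against 84.3, 64.7 and 65.0 CPM untreated, in the second series. Libraries of the SAN series had 45.0, 45.3 and 44.7 CPM with tau, against 66.8, 58.8 and 56.1 CPM untreated. Its tau libraries were the lower ones in both series, and it fell by 0.33 on the log2 scale with an SE of 0.09. Insig1 had 117, 121 and 123 CPM with tau, against 134, 129 and 139 CPM untreated, in the second series. Among SAN libraries it had 96.3, 74.9 and 93.3 CPM with tau, against 138, 149.7 and 126 CPM untreated. The Insig1 groups did not overlap in either series. Its drop was 0.36 (SE 0.11), with an adjusted p of 0.039 in edgeR.

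The transcripts of the SREBP factors themselves had estimates near 0 in this fit over both title series. Srebf2 had a log2 change of 0.00 ± 0.07 and Srebf1 of 0.03 ± 0.07. In the second series Srebf2 had 225, 236 and 235 CPM with tau, against 246, 245 and 256 CPM untreated, and in SAN libraries 213, 194 and 198 CPM with tau, against 175, 206 and 212 CPM untreated. Srebf1 had 95.8, 96.7 and 97.3 CPM with tau, against 113, 98.7 and 106 CPM untreated, in the second series. SAN-titled libraries had 122, 134 and 112 CPM with tau, against 113, 116 and 112 CPM untreated. For both genes every tau library of the second series was below every untreated one, while the SAN groups overlapped. The share of all genes that separate was not counted. Fitted in the second series, all 6 regulators had estimates below 0, from -0.14 to -0.02, with 0 calls in edgeR. For Srebf1 DESeq2 called the difference in tau effect between the series, at -0.30 (adjusted p 0.049), and edgeR did not. Scap had a change of -0.18 ± 0.07 with an adjusted p of 0.063 in edgeR, and Insig2 one of -0.14 ± 0.08. Stard4, a sterol carrier in the cytosol, had -0.13 ± 0.11. None of these 5 passed the threshold in edgeR in the fit over both series.

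The other sterol enzymes did not pass either, and most estimates pointed down. Idi1, which isomerises the isoprene unit, had -0.46 ± 0.17 with an adjusted p of 0.065, and Fdft1, squalene synthase, had -0.39 ± 0.18. Sqle, the squalene epoxidase that sets the pace of the later pathway, had -0.31 ± 0.13, and Lss, which closes the ring system, had -0.14 ± 0.10. Fdps, which makes farnesyl diphosphate, had -0.36 ± 0.25 at only 0.942 to 4.83 CPM over all libraries. Tm7sf2 and Pmvk had -0.23 each, Hsd17b7 -0.15, Ebp -0.07, Nsdhl -0.03 and Acat2 -0.01. Only Mvd, at 0.29 ± 0.15, and Mvk, at 0.20 ± 0.12, were above 0 among the 18 enzymes, and both act in the mevalonate route. Of the fatty acid genes, Elovl6 had -0.46 ± 0.31 at 0.177 to 1.42 CPM, Fasn -0.30 ± 0.12, Acaca -0.28 ± 0.11, Scd1 -0.21 ± 0.23, Fads1 0.08 ± 0.08, Scd2 0.13 ± 0.13, Fads2 0.16 ± 0.28 and Acly 0.17 ± 0.09.

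**Figure D1:**
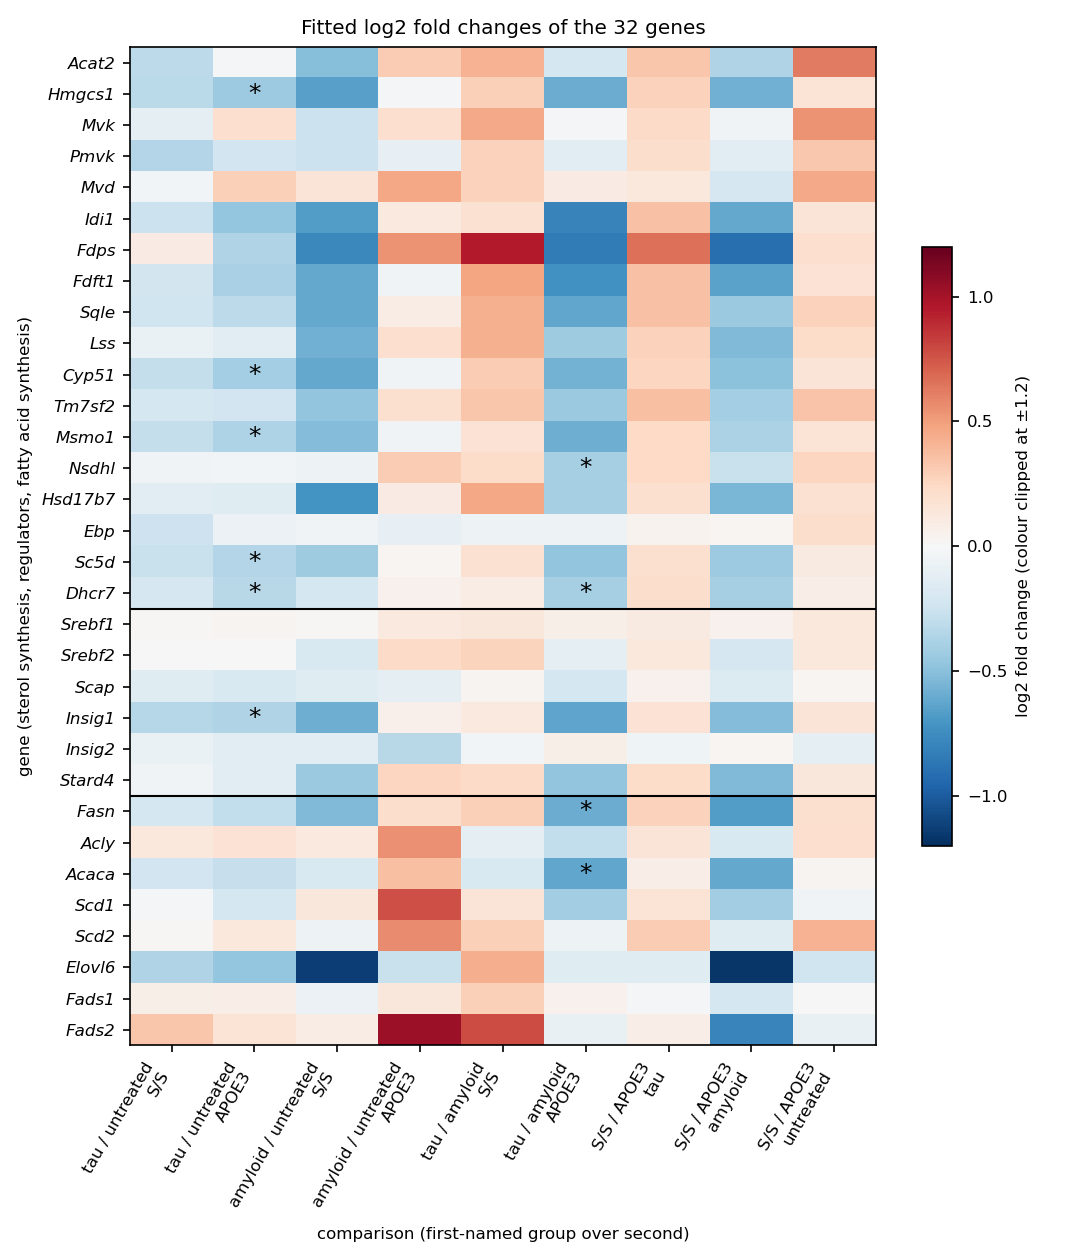
Log2 fold changes of the 32 genes (rows) in 9 comparisons (columns), with the first-named group over the second. Asterisks mark an adjusted p under 0.05 in edgeR and black lines separate sterol enzymes, regulators and fatty acid genes. The called genes stand in the columns of tau over untreated and tau over amyloid in APOE3 cells, with 6 and 4 asterisks.

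The number of calls in APOE3 cells rested on few libraries and on the term for title series. It was 1 without untreated library 1, and 3, 2 and 3 when tau libraries 4, 5 and 6 were left out in turn, all of the SAN series. It was 0 with no term for title series. Markers of astrocytes, all 10 of them detected and mostly Aldh1l1 and Aldoc, summed to 43.2 to 89.9 CPM in tau-treated APOE3 libraries, against 33.6 to 63.6 CPM in untreated ones. Every tau library was above the untreated ones of its own series in astrocyte markers. Oligodendrocyte markers summed to 230.4, 242 and 239 CPM with tau in the SAN series, against 185, 216 and 197 CPM untreated, and overlapped in the second series. Neuronal markers, under 4 CPM in all these SAN libraries, were lower in each tau library than in each untreated one. The part of these markers in the result was not tested.

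In APOE3S/S microglia 0 of the 32 genes were called with tau by edgeR, against 3.28% of all genes. At an unadjusted p under 0.05 in edgeR there were 7, all lower, against 2714 of the 13905 genes tested, 1302 of them lower. DESeq2 called 0. The estimates again lay below 0 for 17 of the 18 sterol enzymes, with a median of -0.23, against -0.01 for all genes. Hmgcs1 had 116, 113 and 97.2 CPM with tau in the second series, against 136 and 121 CPM untreated. Its SAN libraries had 68.1, 69.3 and 44.5 CPM with tau, against 105 and 57.9 CPM untreated. The 2 untreated libraries of the SAN series were far apart, and the tau values fell between and below them. Hmgcs1 had a change of -0.32 ± 0.13, Insig1 of -0.34 ± 0.13 and Sc5d of -0.27 ± 0.12. These 3 were called when APOE3S/S untreated library 2, the lower SAN library, was left out, at -0.45, -0.44 and -0.41. All genes called went from 456 to 836 in that fit.

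The effect of tau was then compared between the genotypes. The difference, APOE3S/S minus APOE3, was called for 0 of the 32 genes by edgeR, as for 0% of the 13905 genes tested. There were 0 of the 32 at an unadjusted p under 0.05 in edgeR, against 284 of all genes, and DESeq2 called 0. Its median over the 32 genes was 0.05, with estimates from -0.32 for Mvd to 0.45 for Fdps. For Hmgcs1 the difference was 0.12 ± 0.17 and for Cyp51 0.12 ± 0.19, so the approximate range of 1 SE on either side included 0.

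In the second series the summed level of the 18 sterol enzymes was 1017, 1039 and 893 CPM in tau-treated APOE3S/S libraries, against 1195 and 1114 CPM in untreated ones. In the SAN series it was 663, 714 and 512 CPM with tau, against 901 and 564 CPM untreated. APOE3 cells had 779, 882 and 879.8 CPM with tau, against 942, 901 and 971 CPM untreated, in the second series. In the SAN series they had 548, 475 and 528 CPM with tau, against 764, 641 and 686 CPM untreated. The APOE3 tau libraries were below the untreated ones in both series, and the APOE3S/S ones overlapped them in the SAN series. The sum of the 8 fatty acid genes was 800.0, 860.5 and 850.5 CPM with tau in APOE3 cells of the second series, against 933, 852 and 842 CPM untreated. In the SAN series it was 907, 950.3 and 811 CPM with tau, against 706, 954 and 858 CPM untreated, with overlap in both series.

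**Figure D2:**
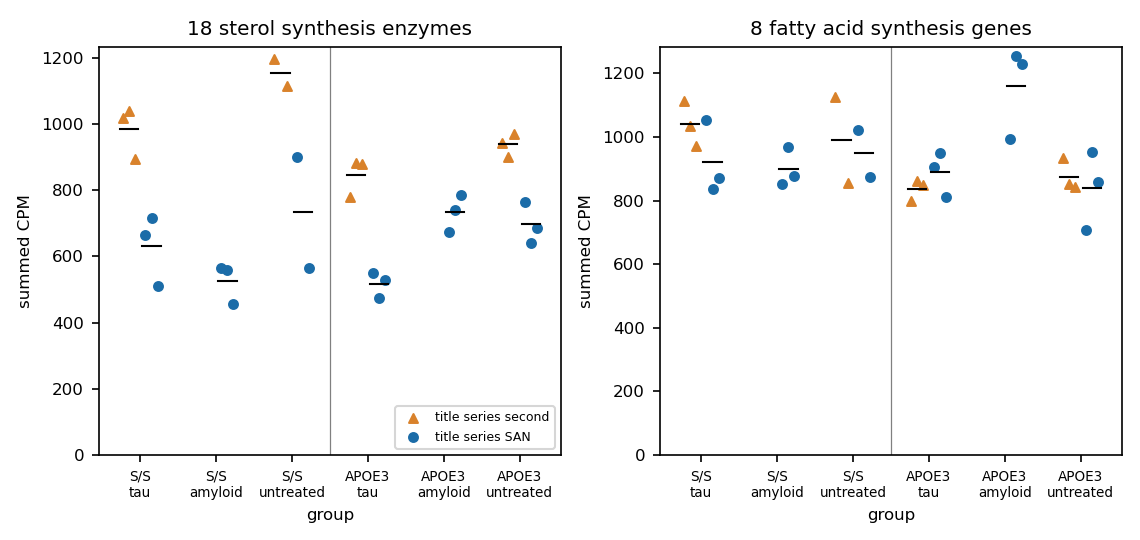
Summed level in CPM of the 18 sterol synthesis enzymes (left) and of the 8 fatty acid synthesis genes (right) in each of 28 libraries, by group. Triangles are libraries of the second title series, circles those of the SAN series, and bars mark the mean within a series. For the sterol enzymes the second series lies above the SAN series in every group that has both.

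The response to tau was also fitted in each title series. In APOE3 cells the difference between them was called for Scd2 and Fads2, 6.25% of the 32 genes, against 5.19% of all genes. With separate group means for each series over the 22 libraries, 13 of the 32 genes were called with tau in APOE3 cells of the SAN series, 3 higher and 10 lower. That is 40.6% of the 32 genes, against 21.4% of the 14614 genes tested. All genes were called higher in 12.0% and lower in 9.43%. With the SAN libraries fitted alone, edgeR called 5 of the 32, with 2615 calls over all genes. Mvd, Scd2 and Fads2 were higher there, and Msmo1 and Scap were the only ones called lower. In the second series 0 of the 32 were called by edgeR, against 0.616% of all genes. There 3 of the 32 had an unadjusted p under 0.05 in edgeR, all lower, against 1852 of all genes, 816 of them lower. DESeq2 called 0.

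The 10 genes lower in the SAN series were 8 sterol enzymes, Scap and Insig1. Fdft1 had the lowest estimate, -0.78 ± 0.23, followed by Idi1 at -0.69 ± 0.23, Msmo1 at -0.65 ± 0.16, Cyp51 at -0.63 ± 0.18 and Hmgcs1 at -0.62 ± 0.16. Sqle had -0.55 ± 0.17, Sc5d -0.47 ± 0.15 and Dhcr7 -0.37 ± 0.12. In the second series the same 8 estimates ran from -0.30 for Dhcr7 to -0.03 for Fdft1. Sqle had 60.3, 73.3 and 75.5 CPM with tau, against 75.7, 75.7 and 75.9 CPM untreated, in the second series. Libraries of the SAN series had 31.9, 22.8 and 28.2 CPM with tau, against 45.3, 39.0 and 41.9 CPM untreated. All 6 tau values of Sqle were below the untreated values of their own series.

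Scap had 51.1, 57.4 and 53.7 CPM with tau, against 60.4, 58.4 and 48.7 CPM untreated, in the second series. Among SAN libraries it had 59.2, 56.1 and 52.1 CPM with tau, against 66.1, 76.5 and 77.9 CPM untreated. Only the SAN series separated the groups, with a change of -0.33 ± 0.08 and an adjusted p of 0.0055 in edgeR, and the change in the second series was -0.04 ± 0.08.

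The 3 genes higher with tau in the SAN series were Mvd, Scd2 and Fads2. Scd2, the stearoyl-CoA desaturase that is the main form in brain, had 95.4, 104 and 114 CPM with tau, against 138, 116 and 123 CPM untreated, in the second series. SAN-titled libraries had 159, 185 and 139 CPM with tau, against 109, 119 and 131 CPM untreated. The tau values were thus the lower ones in the second series and the higher ones in the SAN series, without overlap in either. The change was -0.25 ± 0.15 in the second series and 0.50 ± 0.15 in the SAN series. The difference between the series, second minus SAN, was -0.75 ± 0.21 with an adjusted p of 0.042 in edgeR.

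Fads2, the first desaturase of polyunsaturated fatty acid synthesis, had 1.77, 1.79 and 2.04 CPM with tau, against 3.16, 2.60 and 2.50 CPM untreated, in the second series. SAN-titled libraries had 4.66, 3.82 and 3.23 CPM with tau, against 1.42, 2.24 and 2.83 CPM untreated. Its changes were -0.55 ± 0.29 in the second series and 0.93 ± 0.30 in the SAN series. The difference was -1.48 ± 0.42 with an adjusted p of 0.044 in edgeR. Fads2 and Fads1 lie near each other on chromosome 19, at chr19:10062765-10101746 on the minus strand and chr19:10182888-10196877 on the plus strand (GENCODE M21, GRCm38). Fads1 had no such difference called, at -0.20 ± 0.14.

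Scd1, the paralog of Scd2, had 2.85, 2.95 and 1.54 CPM with tau, against 3.63, 6.11 and 3.19 CPM untreated, in the second series. Its SAN libraries had 15.0, 12.2 and 10.3 CPM with tau, against 8.98, 12.5 and 9.75 CPM untreated. The Scd1 groups overlapped in the SAN series only, and the difference between series of -1.16 ± 0.38 had an adjusted p of 0.084 in edgeR. Scd1 lies at chr19:44394455-44407879 (minus strand) and Scd2 at chr19:44293674-44306864 (plus strand). How reads shared by such paralogs were assigned is not stated in the labels. Mvd had -0.54 ± 0.20 for the same difference, with an adjusted p of 0.13. Over all genes the difference was called in 5.19%, lower in the second series for 2.63% and higher for 2.56%, against 2 of the 32 genes, both lower.

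Over the 12 fits that left out 1 library, the difference was -0.82 to -0.63 for Scd2 and -1.69 to -1.25 for Fads2, while each call was lost in 11. Leaving out APOE3 untreated library 3 left Fads2, leaving out APOE3 tau library 6 left Scd2, and each of the other 10 single removals left 0. All genes called were 412 to 700 in the 12 fits, against 758 with all libraries. In the SAN series the count of 13 was 5 without untreated library 1 and 4 without tau library 5. All genes called there went from 3126 to 2616 and 2351.

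In APOE3S/S cells edgeR called 0 of the 32 genes with tau in the second series, against 0.109% of all genes, and 0 in the SAN series, against 7.21%. The numbers at an unadjusted p under 0.05 in edgeR were 6, all lower, and 4, with 2 lower and 2 higher. Over all 14614 genes tested they were 2943 and 2818. DESeq2 called 1 gene (Pmvk) in the second series and 0 in the SAN series, against 492 and 1372 of all genes. Fads2 had 2.20, 2.86 and 0.992 CPM with tau, against 2.61 and 1.95 CPM untreated, in the second series. Libraries of the SAN series had 4.63, 3.84 and 3.93 CPM with tau, against 2.04 and 2.63 CPM untreated. The tau libraries were all above the untreated ones in the SAN series, as in APOE3 cells, at 0.89 ± 0.33 with an adjusted p of 0.13 in edgeR. Mvd had -0.41 ± 0.16 in the second series and 0.44 ± 0.16 in the SAN series. The difference between series was called for 0 of the 32 by edgeR, against 0.903% of all genes. At an unadjusted p under 0.05 in edgeR there were 6, against 2480 of the 14614 genes tested. DESeq2 called 1, Mvd, against 434 of all genes. Without tau library 6 edgeR called 1 of the 32 in the SAN series, with 530 calls over all genes. Without APOE3S/S untreated library 2 the SAN estimates included -0.69 for Hmgcs1 and -0.63 for Fasn. Without untreated library 3 the second-series estimates included -0.70 for Mvk, -0.95 for Pmvk and -0.58 for Ebp. Leaving out either untreated library left 1 untreated library in its series, assumed to vary like the other groups. For each of these genes the library left out was the lower one. Fasn had 126, 101 and 93.3 CPM with tau in the SAN series, against 176.5 CPM in untreated library 1 and 88.9 CPM in library 2. Mvk had 22.1, 22.2 and 21.0 CPM with tau in the second series, against 22.3 CPM in untreated library 3 and 33.2 CPM in library 4. In the SAN series the APOE3S/S tau libraries also lay above both untreated ones in the summed astrocyte and oligodendrocyte markers and below both in the endothelial ones, whose part was not tested.

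**Figure D3:**
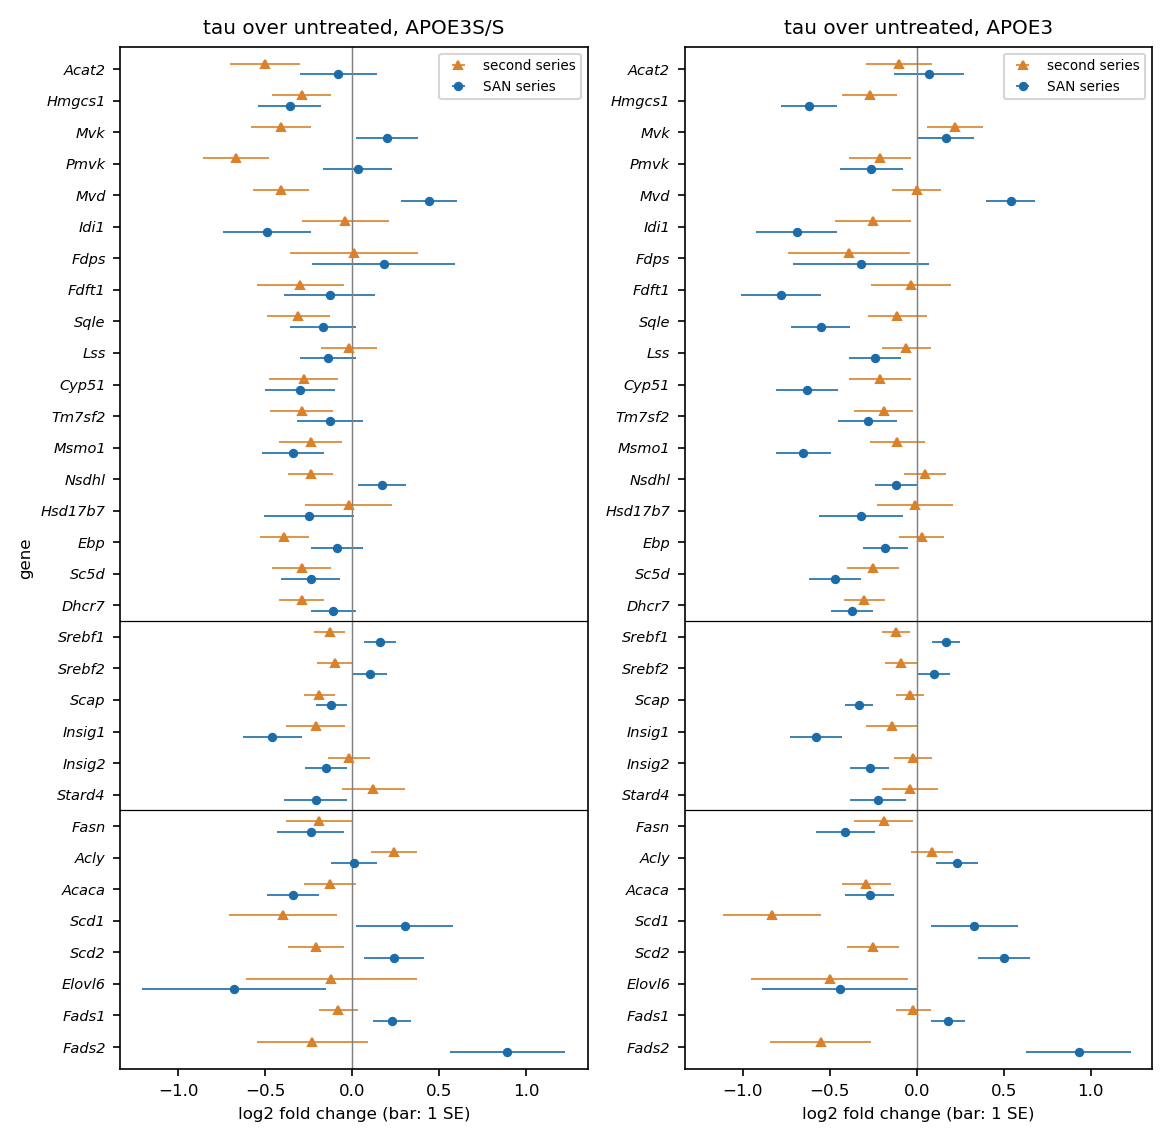
Log2 fold change of tau over untreated for the 32 genes, with bars of 1 SE, in APOE3S/S cells (left) and APOE3 cells (right). Triangles are the second title series and circles the SAN series. Scd2, Fads2 and Scd1 in APOE3 cells lie on opposite sides of 0 in the 2 series, while Hmgcs1, Cyp51, Sc5d and Dhcr7 lie below 0 in both.

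The untreated APOE3 libraries of the series already differed in this pathway. Second over SAN, 10 of the 32 genes were called higher and 2 lower, 37.5% of the 32 genes, against 15.4% of all genes. Of all genes 7.62% were higher and 7.76% lower. The 10 were 8 sterol enzymes, Srebf2 and Fads1. Sqle had the largest call among the enzymes at 0.91 ± 0.17, then Hsd17b7 at 0.80, Lss at 0.75, Cyp51 at 0.74, Acat2 at 0.59, Hmgcs1 at 0.53, Sc5d at 0.49 and Mvd at 0.47. Srebf2 had 0.40 ± 0.09 and Fads1 0.72 ± 0.10. The 2 lower genes were Scd1, at -1.18 ± 0.26, and Scap, at -0.33 ± 0.08. The sterol enzymes had a median of 0.48, against -0.01 for all genes. The count of 12 was 7 without untreated library 2, 4 or 6, while all genes called went from 2248 to 1532, 1642 and 1772. Astrocyte markers summed to 33.6, 34.5 and 39.8 CPM in the second series and 63.6, 63.0 and 47.7 CPM in the SAN series, and their part in the difference was not tested. Title series and any other difference between these libraries cannot be told apart.

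**Figure D4:**
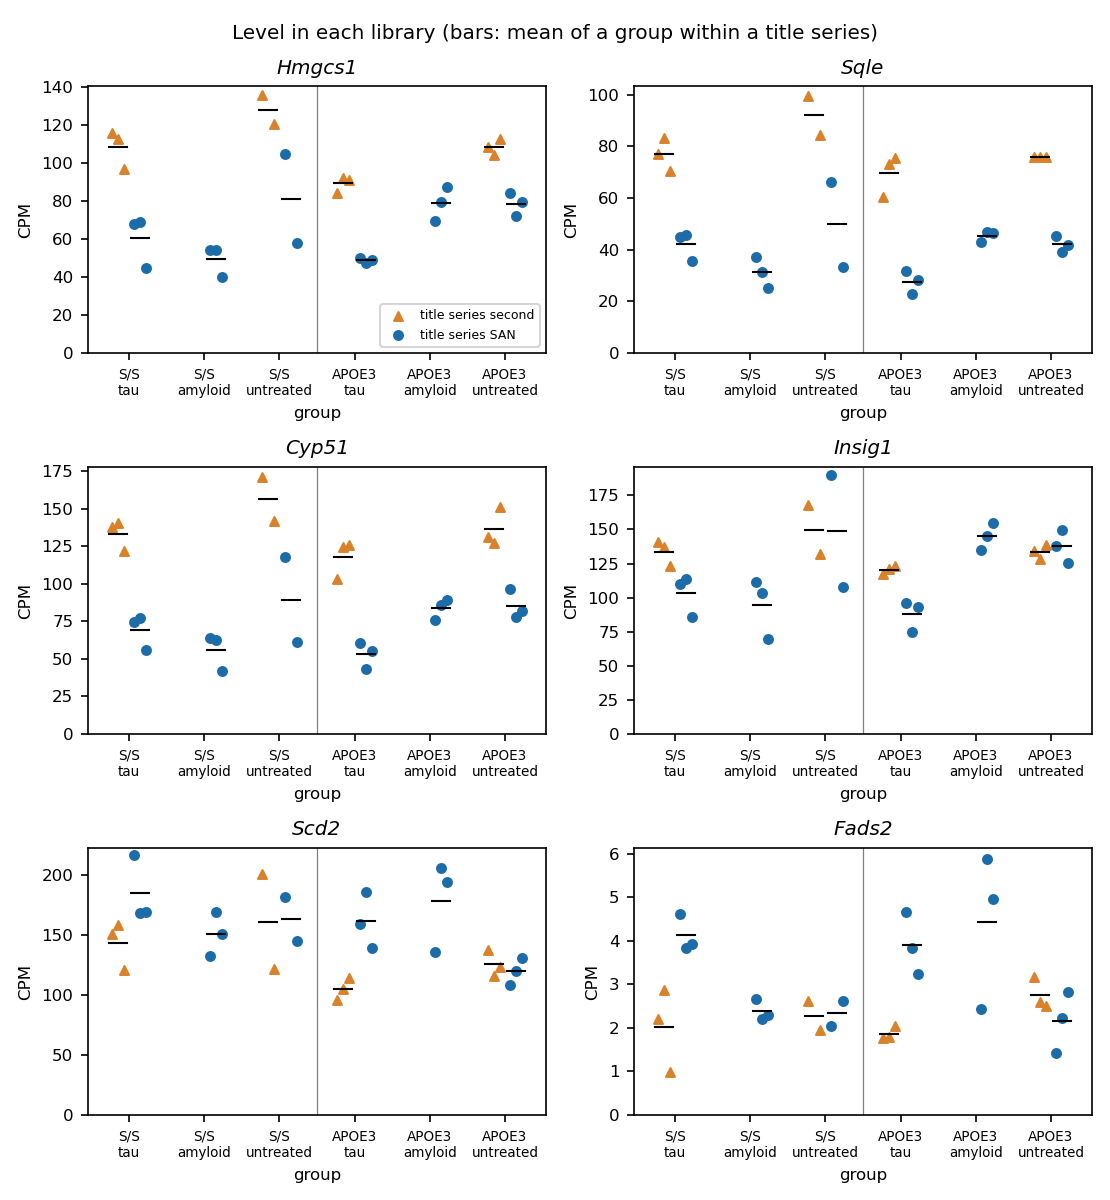
Level in CPM of 6 of the genes in each of 28 libraries, by genotype and treatment. Triangles are libraries of the second title series, circles those of the SAN series, and bars mark the mean within a series. Hmgcs1, Sqle and Cyp51 are higher in the second series in each group that has both, and Fads2 with tau is lower there.

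Genotype was compared within each treatment. With tau, APOE3S/S over APOE3, edgeR called 0 of the 32 genes, against 0.0144% of all genes. At an unadjusted p under 0.05 in edgeR there were 11, all higher in APOE3S/S, against 300 of all genes, 159 of them higher. DESeq2 called 0. All 18 sterol enzymes had estimates above 0, with a median of 0.25, and 29 of the 32 genes did, against 6823 of 13905 genes tested. The largest was Fdps at 0.66 ± 0.25, followed by Tm7sf2 at 0.36 ± 0.12 and Sqle, Idi1 and Fdft1 at 0.35 each. Sqle had 76.9, 83.3 and 70.5 CPM in APOE3S/S tau libraries of the second series, against 60.3, 73.3 and 75.5 CPM in APOE3 ones. Among SAN libraries it had 44.9, 45.7 and 35.6 CPM in APOE3S/S tau libraries, against 31.9, 22.8 and 28.2 CPM in APOE3 ones. The genotypes overlapped for Sqle in the second series and not in the SAN series. Microglial markers summed to 11110, 10680 and 10720 CPM in APOE3S/S tau libraries of the second series, against 10210, 8879 and 9148 CPM in APOE3 ones. In the SAN series astrocyte markers summed to 101, 102 and 94.0 CPM, against 88.6, 89.9 and 73.3 CPM. Endothelial and neuronal sums there were also higher in every APOE3S/S tau library than in every APOE3 one. Other sums overlapped within each series, and the part of these markers was not tested.

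In untreated cells edgeR also called 0 of the 32 genes between the genotypes, against 0.00719% of all genes. There were 7 at an unadjusted p under 0.05 in edgeR, all higher in APOE3S/S, against 1077 of the 13905 genes tested, 632 of them higher. DESeq2 called 0. All 18 sterol estimates were again above 0, with a median of 0.21, against 0.00 for all genes. Acat2, which makes acetoacetyl-CoA, had 0.62 ± 0.15, Mvk 0.54 ± 0.14, Mvd 0.45 ± 0.16 and Scd2 0.42 ± 0.15. Acat2 had 26.6 and 25.3 CPM in untreated APOE3S/S libraries of the second series, against 15.4, 12.8 and 18.2 CPM in APOE3 ones. SAN-titled libraries had 17.7 and 10.9 CPM in APOE3S/S libraries, against 12.3, 10.4 and 9.22 CPM in APOE3 ones. The genotypes did not overlap in the second series and did in the SAN series, where the lower APOE3S/S value lay within the APOE3 range. Astrocyte markers summed to 40.7 and 52.7 CPM in untreated APOE3S/S libraries of the second series, against 33.6, 34.5 and 39.8 CPM in APOE3 ones. The SAN libraries had 75.3 and 91.4 CPM in APOE3S/S, against 63.6, 63.0 and 47.7 CPM in APOE3, without overlap in either series, and the part of this was not tested. The genotype comparisons with tau and untreated share no libraries with each other, but each shares its libraries with the tau comparisons above.

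Amyloid was tested in the 11 untreated and amyloid libraries of the SAN series. In APOE3S/S cells edgeR called 0 of the 32 genes, as for 0% of the 13867 genes tested. There were 10 at an unadjusted p under 0.05 in edgeR, all lower, against 1181 of all genes, 569 of them lower. DESeq2 called 0. Of the 18 sterol enzymes 17 had estimates below 0, with a median of -0.52, against 0.00 for all genes. Hmgcs1 had 54.2, 54.1 and 40.3 CPM with amyloid, against 105 and 57.9 CPM untreated, and Insig1 had 111, 104 and 69.5 CPM with amyloid, against 189.8 and 108 CPM untreated. The Hmgcs1 values with amyloid were below both untreated ones, and those of Insig1 overlapped the lower untreated library. The estimates were -0.65 ± 0.21 for Hmgcs1, -0.59 ± 0.22 for Insig1, -0.72 ± 0.23 for Hsd17b7 and -0.61 for each of Sqle, Cyp51 and Fdft1. Leaving out APOE3S/S untreated library 2 left 1 untreated library, assumed to vary like the other groups. That fit set amyloid against the higher untreated library alone, and its estimates included -0.98 for Hmgcs1 and -0.91 for Fasn. Fasn had 84.4, 92.0 and 86.8 CPM with amyloid, against 176.5 CPM in untreated library 1 and 88.9 CPM in library 2. Its amyloid values thus lay on both sides of library 2. The summed sterol enzymes had 563, 557 and 455 CPM with amyloid, against 901 and 564 CPM untreated, close under the lower untreated library and far under the higher one.

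In APOE3 cells the highest estimates with amyloid were those of Fads2, Scd1, Scd2 and Acly, all of fatty acid synthesis. The highest among the sterol enzymes was 0.54, above the other fatty acid genes. EdgeR called 0 of the 32 with amyloid, as for 0% of all genes. At an unadjusted p under 0.05 in edgeR there were 9, of which 8 were higher. Of the 13867 genes tested 1822 had such a p, 1142 of them higher. DESeq2 called Acly and Scd2, against 289 of all genes. The 8 fatty acid genes had a median of 0.45, and the 18 sterol enzymes one of 0.10. Fads2 had 2.43, 5.89 and 4.96 CPM with amyloid, against 1.42, 2.24 and 2.83 CPM untreated, an estimate of 1.03 ± 0.34. Scd1 had 12.6, 21.5 and 19.4 CPM, against 8.98, 12.5 and 9.75 CPM, an estimate of 0.77 ± 0.21. The amyloid and untreated groups of Scd1 did not overlap, and those of Fads2 did through amyloid library 1. Scd2 had 135, 205 and 194 CPM with amyloid, against 109, 119 and 131 CPM untreated (0.57 ± 0.15). Acly, which cuts citrate into the acetyl-CoA that feeds both pathways, had 549.6, 682 and 641 CPM with amyloid, against 352, 524 and 398 CPM untreated (0.55 ± 0.15). Neither Scd2 nor Acly overlapped between the groups, and the adjusted p in edgeR was 0.21 for each. The share of all genes without overlap was not counted. Acaca, which commits acetyl-CoA to fatty acids, had 0.36 ± 0.12, Fasn 0.21 ± 0.20, Fads1 0.14 ± 0.15 and Elovl6 -0.27 ± 0.54. Fibroblast markers summed to 17.9, 64.4 and 5.53 CPM and astrocyte markers to 73.0, 118 and 91.5 CPM in the APOE3 amyloid libraries, against 2.79, 8.96 and 16.6 CPM and 63.6, 63.0 and 47.7 CPM in the untreated ones. Oligodendrocyte markers summed to 229, 223 and 223 CPM in the amyloid libraries, against 185, 216 and 197 CPM in the untreated ones. Astrocyte, oligodendrocyte and microglial sums did not overlap between the groups, and fibroblast sums did. Their part in these values was not tested.

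The difference in the amyloid effect between genotypes, APOE3S/S minus APOE3, had 30 of 32 estimates below 0 and a median of -0.57, against -0.02 for all genes. Its APOE3S/S side rests on 2 untreated libraries that were far apart, with sterol enzyme sums of 901 and 564 CPM. The untreated APOE3 libraries had sums of 764, 641 and 686 CPM. EdgeR called 0 of them, as for 0% of all genes. At an unadjusted p under 0.05 in edgeR there were 12, all below 0, against 514 of the 13867 genes tested, 257 of them below 0. DESeq2 called 0. All 8 fatty acid genes and 17 of the 18 sterol enzymes were below 0, Fdps lowest at -1.30 ± 0.59. Between genotypes in amyloid-treated cells edgeR also called 0, as for 0% of all genes. There 15 of the 32 had an unadjusted p under 0.05 in edgeR, all lower in APOE3S/S, against 1673 of 13867 genes, 743 of them lower. DESeq2 called 1, Acaca, against 59 of all genes. The median was -0.41, with 29 of 32 estimates below 0. Acaca had 63.6, 65.8 and 73.2 CPM in APOE3S/S amyloid libraries, against 98.5, 113 and 118 CPM in APOE3 ones, and Fasn had 84.4, 92.0 and 86.8 CPM, against 126, 152 and 168 CPM. Neither gene overlapped between the genotypes, with estimates of -0.61 ± 0.12 and -0.67 ± 0.20, and the share of all genes without overlap was not counted. The adjusted p was 0.30 for Acaca and 0.38 for Fasn in edgeR. The sum of the sterol enzymes was 563, 557 and 455 CPM in APOE3S/S, against 675, 741 and 784 CPM in APOE3, again without overlap. Fibroblast markers summed to 1.30, 0.838 and 3.19 CPM in APOE3S/S amyloid libraries, against 17.9, 64.4 and 5.53 CPM in APOE3 ones, and their part was not tested. The estimates thus ran the other way from those with tau and in untreated cells, where APOE3S/S had the higher estimates.

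**Figure D5:**
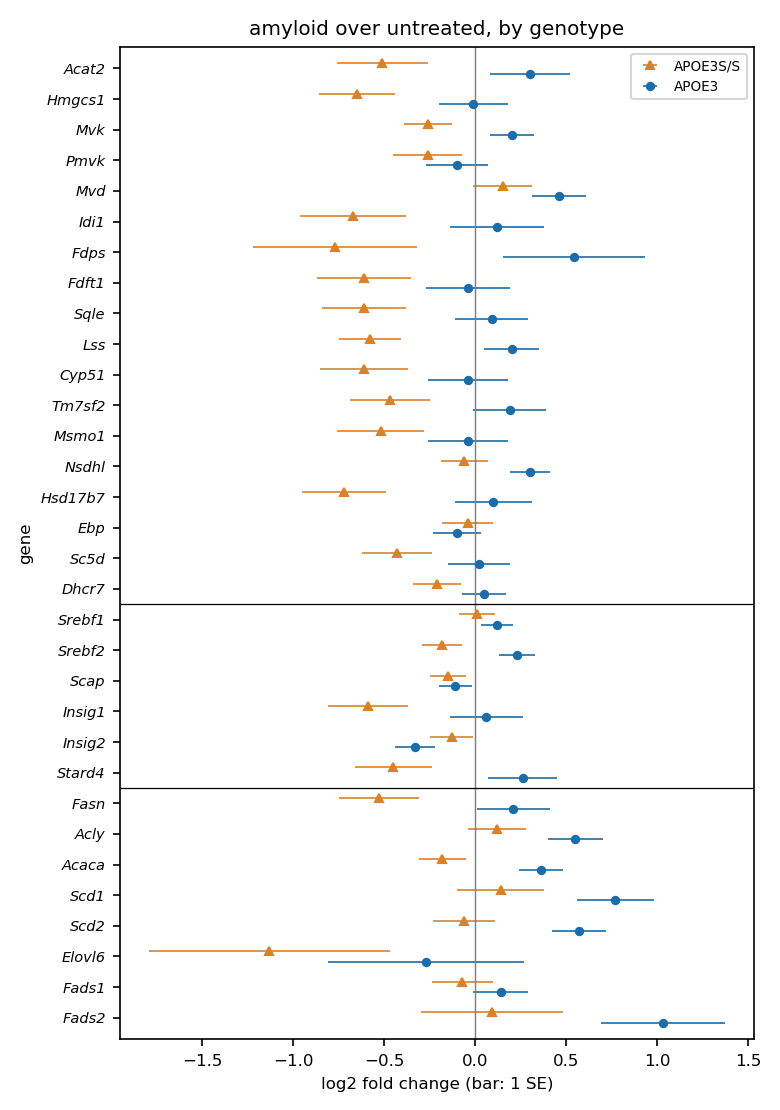
Log2 fold change of amyloid over untreated for the 32 genes, with bars of 1 SE, in APOE3S/S cells (triangles) and APOE3 cells (circles) of the SAN series. The APOE3 estimate is the higher of the pair for 30 genes, all but Ebp and Insig2, and none of the changes passed the test in edgeR. The APOE3S/S estimates rest on 2 untreated libraries that were far apart in the sterol enzymes.

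Tau and amyloid were set against each other in the 17 SAN libraries. In APOE3S/S cells edgeR called 0 of the 32 genes, tau over amyloid, against 0.149% of all genes. There were 8 at an unadjusted p under 0.05 in edgeR, all higher with tau, against 1328 of the 14131 genes tested, 563 of them higher. DESeq2 called 0. The median was 0.28, and 28 of 32 estimates were above 0. In APOE3 cells 4 genes were called, all lower with tau, Nsdhl at -0.40 ± 0.12, Dhcr7 at -0.40 ± 0.11, Fasn at -0.60 ± 0.18 and Acaca at -0.62 ± 0.12. This was 12.5% of the 32 genes, against 7.33% of all genes, 3.21% lower and 4.13% higher. The median over the 32 was -0.40. At an unadjusted p under 0.05 in edgeR there were 19, all lower, against 3314 of 14131 genes, 1517 of them lower. Fasn had 95.5, 95.2 and 85.3 CPM with tau, against 126, 152 and 168 CPM with amyloid. Acaca had 72.1, 68.4 and 62.1 CPM with tau, against 98.5, 113 and 118 CPM with amyloid. Dhcr7 had 45.0, 45.3 and 44.7 CPM with tau, against 58.2, 65.9 and 65.8 CPM with amyloid. None of the 3, shown because they were called, overlapped between the treatments, and the share of all genes without overlap was not counted. Nsdhl, a dehydrogenase of the demethylation steps, had 16.2, 13.2 and 15.1 CPM with tau, against 20.1, 20.9 and 21.3 CPM with amyloid. The count was 1, Acaca, without tau library 4 or amyloid library 1, and 0 without tau library 5 or 6 or amyloid library 2 or 3. All genes called were 58 to 572 in these fits, against 1036 with all libraries. In the APOE3 libraries endothelial markers summed to 34.9 to 46.7 CPM with tau, against 53.3 to 60.9 CPM with amyloid, and microglial markers to 8893 to 9093 CPM with tau, against 9722 to 10228 CPM with amyloid. Oligodendrocyte markers summed to 230.4 to 242 CPM with tau, against 223 to 229 CPM with amyloid. None of the 3 sums overlapped between the treatments, and their part in the result was not tested. This comparison shares its tau and amyloid libraries with the comparisons to untreated cells.

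The wider pathway was followed in 4 lists of neighbouring genes. With tau in APOE3 cells, 1 of 12 other sterol and isoprenoid genes was called, Cyb5r3, an electron donor to the desaturases, higher at 0.32 ± 0.08. Over all genes tested 14.8% were called, 8.98% higher and 5.87% lower. Of 21 other fatty acid and glycerolipid genes 4 were higher and 4 lower. Dgat2, which makes triglyceride, had 2.09 ± 0.34, Acsl1, which activates long-chain fatty acids, 1.49 ± 0.31, and Acss2, which activates acetate, 1.31 ± 0.29. Hacd2, of the elongation cycle, had -0.37 ± 0.08. Of 11 genes of SREBP processing and degradation 1 was called, the ubiquitin ligase gene Rnf139 at 0.28 ± 0.08. Of 20 genes of sterol uptake, storage and export 3 were higher and 4 lower. Abca1, the cholesterol exporter, had 0.91 ± 0.19 and Stard3, a sterol carrier of late endosomes, 0.52 ± 0.12. Lipa, lysosomal acid lipase, had -0.45 ± 0.08, and Soat1, which esterifies cholesterol, -0.38 ± 0.10. In APOE3S/S cells edgeR called 1 of the 21 fatty acid genes with tau, Acsl1 at 1.38 ± 0.36, and 1 of the 20 genes of uptake and export, Abca1 at 0.82 ± 0.22, against 3.28% of all genes. It called 0 of the 12 other sterol genes, with 0 at an unadjusted p under 0.05 and 0 by DESeq2. Of the 11 processing genes it also called 0, with 3 and 2. Over all 13905 genes tested 2714 had such a p in edgeR.

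With tau over amyloid in APOE3 cells, 4 of the 21 fatty acid genes were called, Acsl1, Acss2 and Me1 higher and Lpin1 lower, against 7.33% of all genes. Of the 20 genes of uptake and export 4 were called, Ch25h higher with Rxra, Nceh1 and Soat1 lower. Of the 11 processing genes 1 was called. Of the 12 other sterol genes edgeR called 0, with 1 at an unadjusted p under 0.05 and 0 by DESeq2. Over all 14131 genes tested 3314 had such a p in edgeR. Ch25h, whose product 25-hydroxycholesterol holds SREBP processing back, had 2.12 ± 0.45, and Soat1 -0.35 ± 0.10. Mylip, a ubiquitin ligase gene, had -0.52 ± 0.14.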

How the data were processed

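The deposited values were whole-number gene counts, not normalised per the labels and the values, in 2 tables of 22 and 11 libraries, 5 untreated libraries standing in both with the same values. RNA was extracted with a column kit and sequenced from the 3′ end (QuantSeq forward), per the labels' protocols. The submitters' processing notes name GRCm38 (mm10) and DESeq2 1.38.3. Which aligner and counter were used is not given in the sources used here. Of 60976 entries, 6360 held no number and 25 no name (none with numbers), and 189 repeats of a symbol were left out, keeping the row with the highest total.

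Counts were filtered by filterByExpr, scaled by TMM, and fitted in R 4.3.3 with the quasi-likelihood test of edgeR 4.0.16. P-values were adjusted over all genes by Benjamini-Hochberg, and genes with an adjusted p under 0.05 were called. Tau and genotype fits used 22 libraries with group and title series as terms, amyloid fits 11 SAN libraries, tau against amyloid 17 SAN libraries, and fits by series 22 libraries with a mean per group and series. Values after ± are standard errors of log2 fold changes. The code was tested on simulated data. Replicates are numbered in accession order. Numbers in the titles, which recur across groups, did not pair libraries (correlations of deviations from -0.12 to 0.17).

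All 32 genes are named. Values per library are given for the 8 called in most comparisons, for Srebf1, Srebf2, Insig1, Hmgcs1, Sqle, Fasn, Scd1 and Scd2, and for further genes singled out after their values were seen (Acat2, Acaca, Acly, Fads2 and Nsdhl). Of the neighbouring lists, up to 4 called genes per list and comparison are named. The 32 genes and the lists were chosen with earlier results of these data known. Alternatives were RLE scaling, no filter, a filter at a mean of 10 CPM, DESeq2 1.42.0, each library left out, no title-series term, each series alone and a replicate block. Intervals cover the spread between these libraries only. Overlap between groups was read for the values shown only, and the share of all genes without overlap was not counted. Promoter windows came from RefSeq tables (GRCm38.p6) and gene positions from GENCODE M21.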

Additional observations from a re-analysis of the deposited data

Results flagged for a closer look

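The tau effect of 2 genes in APOE3 cells differed between the title series by a test of that difference. These were 6.25% of the 32 genes, against 5.19% of all genes tested. Each of the calls was lost in 11 of the 12 fits that left out 1 library. The log2 change of Scd2 was lower by 0.75 in the second series than in the SAN series (difference -0.75), with tau values below the untreated ones in the second series and above them in the SAN series. That of Fads2 was lower by 1.48 (difference -1.48), with the same pattern and levels under 6 CPM. Library totals were 16.0 to 27.2 M counts in the second series and 14.5 to 18.7 M in the SAN series, and the part of depth in the difference was not tested.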

How the results depend on the processing

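Each of the 37 called changes of single genes among the 32 kept its direction in all 433 alternatives run for them, and 142 of these lost the call. Of 248 alternative counts of called genes, 193 lay within 1.5 times the reported count, where a 0 that stayed 0 was included. This compares numbers of genes and not which genes. For tau in APOE3, the SAN series alone gave 5 in place of 6, with only Msmo1 in both. All 6 single-library removals for tau over amyloid in APOE3 fell outside that range, as did all 12 for the APOE3 series difference. Without the filter on low counts edgeR called 10 of the 32 genes for tau in APOE3 cells (reported 6), 13 for tau over amyloid in APOE3 (reported 4) and 4 for the APOE3 series difference (reported 2). Over all genes the calls became 2364, 1892 and 1399, from 2064, 1036 and 758. Without the filter, counts reported as 0 became 10 for amyloid in APOE3S/S, 10 for genotype with amyloid, 5 for amyloid in APOE3, 4 for genotype untreated and 2 for tau in APOE3S/S of the SAN series. Calls over all genes became 665, 739, 1008, 343 and 1489, from 0, 0, 0, 1 and 1053. Other counts of 0 among the 32 became 1 each for tau over amyloid in APOE3S/S, tau in APOE3 and in APOE3S/S of the second series, and the APOE3S/S series difference. All genes called there became 487, 755, 1205 and 769, from 21, 90, 16 and 132. DESeq2 gave 10 for tau over amyloid in APOE3 and 4 for the APOE3 series difference, with 1596 and 1172 calls over all genes. DESeq2 also gave 2 for amyloid in APOE3 and 1 each for genotype with amyloid, tau in APOE3S/S of the second series and the APOE3S/S series difference. Its calls over all genes were 289, 59, 492 and 434 there. A filter at a mean of 10 CPM left 1 for the APOE3 series difference, since Fads2 was not tested. For tau the count was 0 in APOE3 with no title-series term. With the second series alone it was 0 in APOE3 and 1 in APOE3S/S, and with the SAN series alone 5 and 0. Causes other than the one given were not tested.

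Leaving out each library in turn gave 1 to 8 calls for tau in APOE3, 0 to 3 for tau in APOE3S/S, 0 to 10 for amyloid in APOE3S/S and 0 to 1 for tau over amyloid in APOE3. It gave 4 to 12 for tau in APOE3 of the SAN series, 0 to 1 for the APOE3 series difference and 7 to 11 for the untreated series. In APOE3S/S it gave 0 to 9 for tau in the SAN series, 0 to 3 in the second series and 0 to 3 for the series difference. The other comparisons gave 0 throughout. The highest counts for amyloid and for tau by title series in APOE3S/S came from fits that left 1 untreated library. Calls over all genes changed with the library left out as well.

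With a replicate block by the number in the titles, edgeR called 0 genes for the difference in tau effect, 0 for genotype with tau, 0 for genotype untreated, 0 for the difference in amyloid effect and 0 for genotype with amyloid, as without the block. Same-numbered libraries did not all correlate best with each other, so the numbers were not taken as pairs. Depth limits Elovl6, Fdps and Fads2, which lay under 6 CPM.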
